A study of Mus musculus with 12 samples.

Results

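The subject is a difference of differences: how far the change in RNA levels from day 8 to day 16 of embryoid body culture in the line labelled WT+1343KO-a14 (1343KO below) departed from the change over the same days in the wild type line (WT). It was taken for each gene as 1343KO day 16 minus 1343KO day 8, less WT day 16 minus WT day 8, on the log2(FPKM + 1) scale, and is called the interaction below. A positive interaction means that the gene rose more, or fell less, in 1343KO than in WT. The contrast used the 8 libraries of days 8 and 16 out of the 12 in the series, and 16289 of the 54537 genes in the table were tested, those that reached 1 FPKM in 2 or more libraries. FPKM is fragments scaled to transcript length and to the mapped fragments of the library, so levels are already per length. A pseudocount of 1 understates the changes of genes at low levels.

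The groups were 1343KO at day 16, 1343KO at day 8, WT at day 16 and WT at day 8, each with 2 libraries of poly(A) RNA from mouse cells. Both lines began as embryonic stem (ES) cells kept in serum with the cytokine LIF, and were then grown as floating aggregates (embryoid bodies) without LIF. The 1343KO line is 1 clone, a14. Neither the locus behind the number nor the meaning of the leading WT+ is given in the labels, and nothing there tells separate cultures from repeat libraries, so the p-values cover only how far these libraries lay apart. The series' title points to the small nucleolar RNA SNORA73, whose mouse copies lie in the noncoding host gene Snhg3. Snhg3 (ENSMUSG00000085241, chromosome 4, 132348014 to 132353686 of GRCm38) was listed at 0 in both 1343KO day 16 libraries and at 0, or a value that rounds to it, in both of day 8, against 16.7 and 8.31 FPKM in WT at day 16 and 13.7 and 30.2 at day 8, and its interaction was not called (adjusted p = 0.535). Depth, estimated from the steps of the lowest values, was about 4822000 to 7918000 fragments in the 8 libraries, and 13311 to 14069 genes per library reached 1 FPKM. Replicate libraries correlated at 0.970 to 0.975 across genes, which are not independent replicates.

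An embryoid body is a mixed aggregate in which ES cells leave pluripotency and form, side by side and without a body plan, derivatives of the germ layers and of the yolk sac. In the mouse yolk sac the first blood cells are primitive erythrocytes, which make embryonic globins for a short time, and primitive macrophages follow from related progenitors. The visceral endoderm around them secretes the plasma proteins that the liver makes later. RNA from whole aggregates does not separate fewer cells of a type from less RNA per cell, and every change below can be either.

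From day 8 to day 16 the WT aggregates changed widely and the 1343KO aggregates little. The limma fit, with Benjamini-Hochberg adjustment over all tested genes, called 131 genes for the change in 1343KO (0.804%), 98 higher at day 16 (0.602%) and 33 lower (0.203%). It called 4495 in WT (27.6%), 2301 higher (14.1%) and 2194 lower (13.5%). The median absolute change was 0.18 in 1343KO and 0.34 in WT, and 436 genes in 1343KO against 1906 in WT moved by at least 1 on the log2 scale. Both lines had 2 libraries a day and shared 1 estimate of the spread. The interaction itself was called for 2720 genes, 16.7% of those tested: 1384 higher in 1343KO (8.5%) and 1336 lower (8.2%). The median interaction over all tested genes was 0.034. The balance of directions moved with scaling, to 1181 higher and 1449 lower under median-of-ratios scaling and 1719 higher and 1293 lower under TPM scaling.

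Most called genes were genes that moved in WT. Of the 2720, 2417 (88.9%) were called for the change in WT and not in 1343KO, 89 were called in 1343KO, and 214 were called in neither line alone. The 1384 genes with a higher interaction had a median change of 0.11 in 1343KO and -0.66 in WT. The 1336 with a lower one had a median change of -0.061 in 1343KO and 1.35 in WT. The gap between the lines was wider at day 16 than at day 8 for 1386 called genes, narrower for 354, and of opposite sign on the 2 days for 980. These classes rest on the estimates alone, without a call on either day, so a small difference on 1 day can set the sign. Ctgf, for example, differed between the lines by 0.046 at day 8 (limma adjusted p = 0.715) and by -0.85 at day 16. The number of calls leaned on single libraries. Without replicate 1 or replicate 2 of WT day 16, 1596 and 1624 genes were called by the interaction, 675 and 644 of them lower. Without replicate 2 of 1343KO day 8, replicate 2 of WT day 8 or replicate 1 of WT day 16, 888, 892 and 921 were called higher. The 1343KO change had 23 and 28 calls without replicates 1 and 2 of 1343KO day 16, and 54 and 33 without those of day 8, and the WT change had 2761 and 2747 without replicates 1 and 2 of WT day 16.

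**Figure D1:**
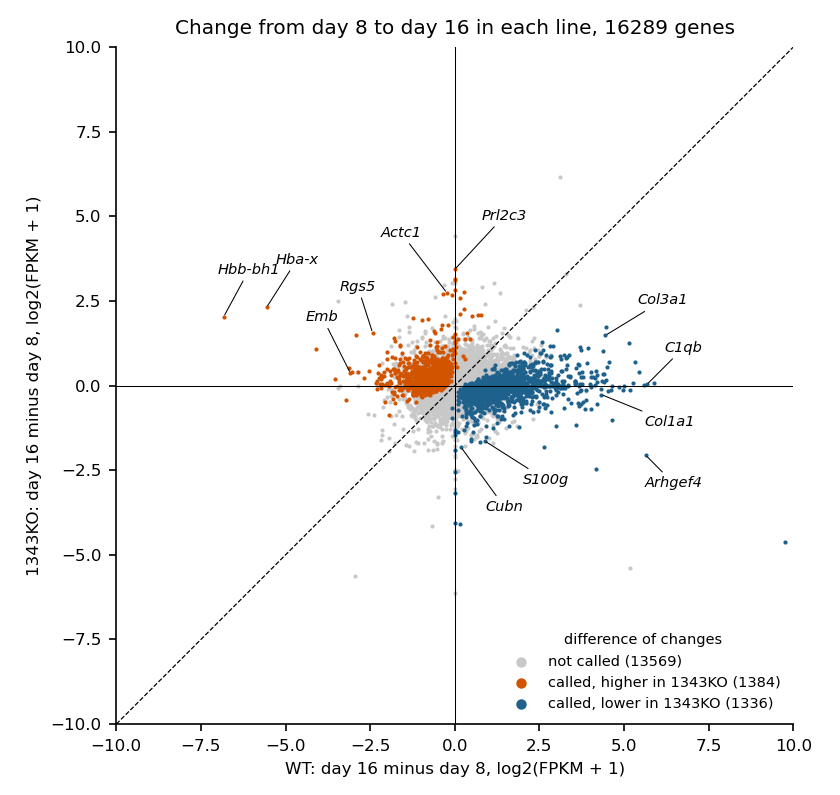
Change from day 8 to day 16 in 1343KO (vertical axis) against the change in WT (horizontal axis), in log2(FPKM + 1), for 16289 genes; colours mark the interaction calls and the dashed line is equal change in both lines. The coloured points spread along the horizontal axis, since 2417 of the 2720 called genes were called for the change in WT and not in 1343KO.

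The embryonic globins Hbb-bh1 and Hba-x had the largest positive interactions among the named genes, and they were high in WT at day 8 alone. Of 16 tested genes of red cells and their precursors, 11 had a higher interaction and none a lower one, with a median of 2.13. The shares over all tested genes, to set beside this and later list counts, were 8.5% higher and 8.2% lower for the interaction. They were 14.1% and 13.5% for the WT change, and 0.602% and 0.203% for the 1343KO change. The embryonic beta-type globin Hbb-bh1 (ENSMUSG00000052217, chromosome 7, 103841637 to 103843164 of GRCm38) was at 7.49 and 17.6 FPKM in 1343KO at day 16 and 3.25 and 1.22 FPKM at day 8. In WT it was at 4.84 and 7.55 FPKM at day 16 and 759.6 and 844 FPKM at day 8. The 2 WT day 8 libraries stood far above the other 6, and among the others the day 16 libraries of the lines overlapped while 1343KO at day 8 lay lowest. The interaction was 8.86 ± 0.58 (SE; adjusted p = 2.97e-05), made of a called fall of 6.83 in WT and a change of 2.03 in 1343KO that was not called (adjusted p = 0.0706).

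Hba-x, the embryonic alpha-type globin, was the one member also called in 1343KO, where it rose. It stood at 9.51 and 8.03 FPKM in 1343KO at day 16 and 1.18 and 0.774 at day 8, against 2.96 and 7.51 in WT at day 16 and 257 and 290.1 at day 8 (interaction 7.87 ± 0.50, adjusted p = 2.73e-05). At day 16 both 1343KO libraries lay above both of WT, and at day 8 far below them. The embryonic beta globin Hbb-y had an interaction of 4.41 (adjusted p = 0.00116) and the alpha globin Hba-a1, used in the fetus and adult, 2.35 (adjusted p = 0.00472). Globin genes are near copies of each other, and how the authors' counting divided their reads is not known. Alas2, the first enzyme of haem synthesis in red cells, was at 0.460 and 0.191 FPKM in 1343KO at day 16 and 0 and 0 at day 8, against 0.163 and 0.295 in WT at day 16 and 9.48 and 8.55 at day 8 (interaction 3.43 ± 0.49, adjusted p = 0.00183). The WT day 8 libraries again stood apart from the other 6. The red cell transcription factors Klf1 (interaction 2.20, adjusted p = 0.00213), Gata1 (2.06, adjusted p = 0.00255), Nfe2 (2.42, adjusted p = 0.00278) and Tal1 (1.47, adjusted p = 0.00814) were all called, Gata1 and Tal1 not with a pseudocount of 0.1 (adjusted p = 0.089 and 0.093). Car2, a carbonic anhydrase of red cells and other tissues, was called at 1.97 (adjusted p = 0.000266). Of the adult beta globins, Hbb-bt rose in WT (adjusted p = 0.00663), and neither it nor Hbb-bs had an interaction call (adjusted p = 0.443 and 0.642).

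Other genes of the upward set had the same course of a WT peak at day 8. Emb, the membrane protein embigin, was at 150.3 and 144 FPKM in 1343KO at day 16 and 115 and 113 at day 8, against 60.0 and 57.8 in WT at day 16 and 511 and 502 at day 8. It fell in WT, rose in 1343KO, and had the smallest adjusted p of the genes named here (interaction 3.45 ± 0.093, adjusted p = 4.15e-07). Cfc1, the Nodal co-receptor cryptic, was at 4.52 and 8.54 FPKM in 1343KO at day 16 and 2.53 and 2.37 at day 8, against 0.393 and 0.374 in WT at day 16 and 20.7 and 25.3 at day 8 (interaction 5.18 ± 0.49, adjusted p = 0.000186). Rgs5, a regulator of G protein signalling found in pericytes, rose in 1343KO (by 1.56) and fell in WT (by 2.43). Ms4a4d (interaction 3.66, adjusted p = 0.00029), a 4-pass membrane protein gene, and the homeodomain protein gene Hopx (3.26, adjusted p = 0.00927) were also called, though for Hopx the day 8 libraries of 1343KO disagreed (4.41 and 0.479 FPKM). The 2 glucose transporters of the glycolysis list moved the same way. Slc2a3 was at 358 and 344 FPKM in 1343KO at day 16 and 372 and 381 at day 8, against 245 and 259.7 in WT at day 16 and 754 and 748 at day 8 (interaction 1.47 ± 0.075, adjusted p = 1.47e-05), and Slc2a1 had an interaction of 1.49 (adjusted p = 2.38e-05). Of the 22 members of that list, 4 were called higher and 6 lower, the hypoxia-responsive gene Bnip3 among the lower ones (-1.29, adjusted p = 0.000535). The lower count was 3 without any one of both 1343KO day 8, both WT day 16 and both WT day 0 libraries, 1343KO day 16 replicate 1 or WT day 8 replicate 1, and the higher count was 2 without 1343KO day 16 replicate 2, WT day 16 replicate 1 or WT day 8 replicate 2.

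**Figure D2:**
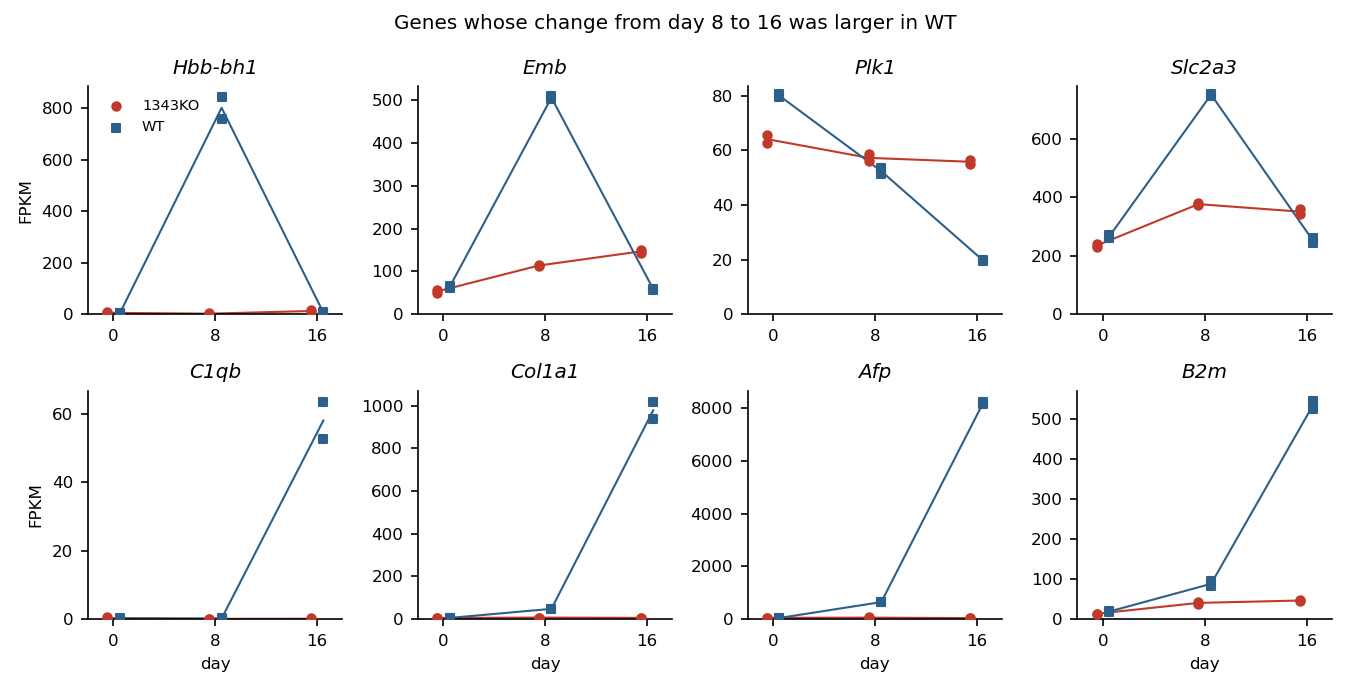
FPKM of 8 genes in every library at days 0, 8 and 16, for 1343KO (circles) and WT (squares), with lines through the means of 2 libraries; each panel has its own axis from 0. Hbb-bh1, Emb and Slc2a3 peaked in WT at day 8, Plk1 fell in WT after day 8, and C1qb, Col1a1, Afp and B2m rose in WT after day 8, while of these genes only Emb was called in 1343KO.

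Cell division genes fell in WT and were not called for a change in 1343KO. Of 20 genes of mitosis and its control, 19 had a higher interaction (median 1.10), all 20 fell in WT (median change -1.02), and none was called in 1343KO (median change 0.014). Plk1 (ENSMUSG00000030867, chromosome 7, 122159439 to 122169873 of GRCm38), the kinase that drives entry into and exit from mitosis, was at 55.1 and 56.6 FPKM in 1343KO at day 16 and 56.0 and 58.5 at day 8. In WT it was at 19.4 and 20.01 FPKM at day 16 and 51.3 and 53.4 at day 8. Only the WT day 16 libraries stood apart, below the other 6 (interaction 1.33 ± 0.093, adjusted p = 3.81e-05). Ccna2, cyclin A2, had an interaction of 1.29 ± 0.083 (adjusted p = 2.73e-05), Cdc20, an activator of the anaphase-promoting complex, 1.31 ± 0.12 (adjusted p = 0.000201), and Top2a, the topoisomerase of dividing cells, 1.13 ± 0.098 (adjusted p = 0.000119). The proliferation marker Mki67 was at 34.1 and 32.6 FPKM in 1343KO at day 16 and 28.1 and 29.4 at day 8, against 28.2 and 27.2 in WT at day 16 and 51.2 and 54.5 at day 8. It was lower in 1343KO than in WT at day 8 and slightly above it at day 16 (interaction 1.11 ± 0.12, adjusted p = 0.000381). The exception among the 20 was Cdk1, the main mitotic kinase (interaction 0.54, adjusted p = 0.105).

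The promoters of such genes often carry the cell cycle homology region, a short element that mitotic genes share. Promoters here are the 250 bases before and 50 after the annotated start in RefSeq (GRCm38.p6), and a gene counts as holding a motif if any of its listed promoters does, on either strand. TTTGAA, the letters of that element, occurred in 12 of the 16 list members with a listed promoter, against 20.2% of all 27025 genes with one and 14.5% of the tested genes. Those of Cdc20 (chr4:118437294-118437593, minus strand) and Plk1 (chr7:122159185-122159484, plus strand) are shown from RefSeq, 5′ to 3′ on the gene's strand, with the match in capitals, as examples among the members with the smallest p. A match describes the letters in this window and not binding.
Cdc20: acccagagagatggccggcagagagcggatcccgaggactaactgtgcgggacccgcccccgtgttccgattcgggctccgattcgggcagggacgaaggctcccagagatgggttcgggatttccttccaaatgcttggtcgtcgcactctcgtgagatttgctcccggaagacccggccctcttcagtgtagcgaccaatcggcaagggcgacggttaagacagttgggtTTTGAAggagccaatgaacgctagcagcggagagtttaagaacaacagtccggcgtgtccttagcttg
Plk1: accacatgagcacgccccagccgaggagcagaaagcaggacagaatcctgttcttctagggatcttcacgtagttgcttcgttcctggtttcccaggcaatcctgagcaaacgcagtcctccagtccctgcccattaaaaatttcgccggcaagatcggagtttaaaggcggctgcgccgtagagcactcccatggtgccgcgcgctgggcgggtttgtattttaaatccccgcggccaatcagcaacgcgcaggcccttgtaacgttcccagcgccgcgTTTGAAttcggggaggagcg

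Genes for making ribosomes followed the same course with smaller changes. Of 30 nucleolar and ribosome assembly genes, 21 had a higher interaction and none a lower one (median 0.62), 24 fell in WT and none was called in 1343KO. The nucleolar protein gene Ncl was at 453 and 456 FPKM in 1343KO at day 16 and 459.8 and 455 at day 8, against 160.4 and 162 in WT at day 16 and 212 and 226 at day 8 (interaction 0.43 ± 0.066, adjusted p = 0.00263). The 1343KO libraries of both days lay at about the same level, above every WT library. Dkc1, dyskerin, the pseudouridine synthase that works with H/ACA small nucleolar RNAs (the class SNORA73 belongs to), had an interaction of 0.89 ± 0.11 (adjusted p = 0.000797), with 88.6 and 85.3 FPKM in 1343KO at day 16 and 96.3 and 87.0 at day 8, and 17.2 and 17.3 in WT at day 16 and 33.2 and 35.9 at day 8. Of the other 3 core proteins of those particles, Gar1 (1.20, adjusted p = 0.0192) and Nhp2 (0.68, adjusted p = 0.0287) were called and Nop10 was not (0.26, adjusted p = 0.232). Gnl3, nucleostemin, and Mybbp1a, a nucleolar MYB-binding protein, had interactions of 0.92 (adjusted p = 0.000893) and 0.69 (adjusted p = 0.00113). Of 33 cytosolic ribosomal proteins tested, 17 had a higher interaction and none a lower one (median 0.37), and 28 fell in WT, among them Rps2, at 2180.4 and 2145 FPKM in 1343KO at day 16 and 2244 and 2172 at day 8 against 943 and 986 in WT at day 16 and 1560.0 and 1649.5 at day 8. The ribosome assembly count was 13 without WT day 8 replicate 2, and the ribosomal protein count 11 without that library or 1343KO day 16 replicate 2. Rcc1, whose gene neighbours Snhg3 and whose protein loads the Ran GTPase, was called at 0.78 (adjusted p = 0.0351). Some of these calls were fragile. Nhp2 and Rcc1 were not called with no filter (adjusted p = 0.0595 and 0.0676) or in a fit of the 8 libraries alone (0.0509 and 0.0631). With libraries left out singly, Gar1 was not called without 1343KO day 16 replicate 1, 1343KO day 8 replicate 2, WT day 16 replicate 1, WT day 8 replicate 1 or WT day 8 replicate 2 (adjusted p of 0.051 to 0.0676), Nhp2 not without 1343KO day 16 replicate 1, 1343KO day 16 replicate 2, 1343KO day 8 replicate 2, WT day 16 replicate 1, WT day 16 replicate 2 or WT day 8 replicate 2 (adjusted p of 0.0598 to 0.0938), and Rcc1 not without 1343KO day 16 replicate 1, 1343KO day 16 replicate 2, 1343KO day 8 replicate 1, 1343KO day 8 replicate 2, WT day 16 replicate 1, WT day 16 replicate 2 or WT day 8 replicate 2 (adjusted p of 0.0543 to 0.0999), its interaction being 0.51 without WT day 8 replicate 2.

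Macrophage genes rose in WT after day 8 and were low in 1343KO on both days. Of 16 tested members of the macrophage list, 15 had a lower interaction, all 16 rose in WT, and none was called in 1343KO (median interaction -3.62). Their summed level was 9.19 and 9.67 FPKM in 1343KO at day 16 and 12.7 and 9.61 at day 8, against 412 and 385 in WT at day 16 and 28.1 and 31.5 at day 8. C1qb (ENSMUSG00000036905, chromosome 4, 136880129 to 136886187 of GRCm38), a chain of complement C1q that macrophages secrete, was at 0.202 and 0 FPKM in 1343KO at day 16 and 0.148 and 0 at day 8. In WT it was at 63.5 and 52.6 FPKM at day 16 and 0.325 and 0 at day 8. The WT day 16 libraries alone held it (interaction -5.64 ± 0.36, adjusted p = 2.73e-05). The other C1q chains had interactions of -5.31 (C1qc) and -4.89 (C1qa). The signalling adaptors Tyrobp (-4.999, adjusted p = 6.09e-05) and Fcer1g (-4.64, adjusted p = 0.000113) were listed at 0 in all 4 1343KO libraries. The lysosomal protease Ctss, the bacteria-digesting enzyme Lyz2 and the fractalkine receptor Cx3cr1 had interactions of -4.41, -4.11 and -4.19. Csf1r, the receptor for the growth factor that macrophages need, was at 2.11 and 1.46 FPKM in 1343KO at day 16 and 1.26 and 1.32 at day 8, against 29.7 and 26.7 in WT at day 16 and 2.90 and 3.59 at day 8 (interaction -2.51 ± 0.26, adjusted p = 0.00035). The member without an interaction call was Spi1, the transcription factor PU.1 (-1.53, adjusted p = 0.0789), which rose in WT (adjusted p = 0.0156). The pan-leukocyte gene Ptprc (CD45) had an interaction of -2.13 (adjusted p = 0.000528), and of 10 lymphoid and mast cell genes only it and 1 other reached the level for testing. Without either WT day 16 library only 5 of the 16 macrophage genes passed the filter of 1 FPKM in 2 libraries. Because the others passed it only through the WT day 16 libraries, where they are high, the list's counts describe the tested members. They are no support for a change of the list.

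Collagens and other matrix genes of connective tissue rose in WT and mostly had no called change in 1343KO. Of 17 collagens, 13 had a lower interaction and 1 a higher one (median -2.97), and 15 rose in WT. Col1a1 (ENSMUSG00000001506, chromosome 11, 94936224 to 94953042 of GRCm38), a chain of type I collagen, was at 5.81 and 5.76 FPKM in 1343KO at day 16 and 7.24 and 7.05 at day 8. In WT it was at 937 and 1018 FPKM at day 16 and 47.3 and 48.5 at day 8 (interaction -4.59 ± 0.21, adjusted p = 1.06e-05). Its partner chain Col1a2 had -4.16 ± 0.22 (adjusted p = 1.48e-05). Col3a1, of type III collagen, differed in that it was called in both lines. It rose to 17.8 and 18.3 FPKM in 1343KO at day 16, against 7.15 and 4.71 at day 8, and to 855 and 892 in WT at day 16, against 34.6 and 44.1 at day 8, so that the interaction of -2.97 ± 0.33 (adjusted p = 0.000528) was a smaller rise in 1343KO and not the lack of one. The 1 higher member was Col18a1, a basement membrane collagen (0.54, adjusted p = 0.0144), not called without 1343KO day 8 replicate 2 or WT day 8 replicate 2 (adjusted p of 0.0513 to 0.0522). Without 1343KO day 16 replicate 2 the higher count was 2.

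Of 19 other matrix genes, 14 had a lower interaction and none a higher one, and 17 rose in WT (median interaction -1.86). Lox, the enzyme that crosslinks collagen, was at 0.825 and 0.539 FPKM in 1343KO at day 16 and 0.726 and 0.611 at day 8, against 104 and 98.9 in WT at day 16 and 1.18 and 1.03 at day 8 (interaction -5.59 ± 0.26, adjusted p = 1.06e-05). Dcn, decorin, a proteoglycan that binds collagen fibrils, had -5.03 ± 0.48 (adjusted p = 0.000198). Lum, lumican, of the same family, was called in both lines and rose less in 1343KO (change 1.05) than in WT (3.73). Sparc, a collagen-binding glycoprotein high in every group, was at 178 and 172 FPKM in 1343KO at day 16 and 198 and 199 at day 8, against 1165 and 1161 in WT at day 16 and 495 and 515 at day 8 (interaction -1.38 ± 0.074, adjusted p = 1.57e-05). Without WT day 16 replicate 2 the count of this list was 9. The mesenchymal transcription factors Osr1 (-2.66, adjusted p = 0.000982), Tcf21 (-2.34, adjusted p = 0.00396) and Prrx1 (-1.79, adjusted p = 0.00799) were lower too, the last pair not with a pseudocount of 0.1 (adjusted p = 0.306 and 0.0862). In their list of 14 mesoderm factors 4 others were called higher (1 without WT day 16 replicate 1), led by Hand1, a factor of extraembryonic mesoderm and heart. Hand1 fell in WT to 58.9 and 65.7 FPKM at day 16, against 154 and 162 at day 8, while 1343KO had 19.04 and 21.6 at day 16 and 16.9 and 15.6 at day 8 (interaction 1.64 ± 0.24, adjusted p = 0.00197).

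Many plasma protein genes of yolk sac endoderm and liver rose in WT. Several members of their list, which also holds endocytic receptor genes, fell in 1343KO. Of 19 tested members, 13 had a lower interaction and 1 a higher one (median -2.01). In WT 11 rose and 3 fell, and in 1343KO 5 fell. Afp (ENSMUSG00000054932, chromosome 5, 90490737 to 90508907 of GRCm38), alpha-fetoprotein, the main plasma protein of the embryo, was at 43.1 and 29.5 FPKM in 1343KO at day 16 and 60.6 and 50.2 at day 8. In WT it was at 8246 and 8139 FPKM at day 16 and 631 and 659 at day 8. Every 1343KO library lay below every WT library, most of all at day 16 (interaction -4.28 ± 0.30, adjusted p = 3.81e-05). Trf, transferrin, the iron carrier, was at 9.53 and 5.64 FPKM in 1343KO at day 16 and 10.99 and 11.3 at day 8, against 1246 and 1255 in WT at day 16 and 82.1 and 107 at day 8 (interaction -4.26 ± 0.32, adjusted p = 6.14e-05). Apoa4, a lipoprotein component, had -4.76 ± 0.43 (adjusted p = 0.000137), Fga, a fibrinogen chain, -4.06 ± 0.33 (adjusted p = 8.15e-05), and Ttr, transthyretin, the thyroid hormone carrier, -2.12 ± 0.18 (adjusted p = 0.000104). Kng1, kininogen, the precursor of bradykinin, which the list does not hold, was at 0.906 and 0.669 FPKM in 1343KO at day 16 and 0.801 and 0.609 at day 8, against 82.8 and 82.2 in WT at day 16 and 0.222 and 0.617 at day 8 (interaction -5.82 ± 0.29, adjusted p = 1.24e-05). Serpina1b, one of the near-identical copies of alpha-1-antitrypsin, had -5.201 (adjusted p = 9.23e-05). Apob and Cubn fell in 1343KO. Cubn, cubilin, the endocytic receptor of the visceral endoderm surface, was at 0.610 and 0.871 FPKM in 1343KO at day 16 and 4.89 and 5.31 at day 8, against 40.7 and 41.3 in WT at day 16 and 35.0 and 37.4 at day 8. Its interaction of -1.99 ± 0.17 (adjusted p = 0.000129) came from 1343KO, and the change in WT was not called (adjusted p = 0.34). Amn, amnionless, the partner that carries cubilin to the surface, fell in 1343KO as well (change -1.91, adjusted p = 0.0486), though its interaction was not called (adjusted p = 0.12). The higher member was Apoe, which fell in WT (interaction 0.70, adjusted p = 0.0021). Of 14 endoderm transcription factors, 3 were called higher and none lower, and 1 without WT day 16 replicate 1 or either WT day 8 library. Gata4 was called at 1.23 (adjusted p = 0.0118), while Gata6 (0.21, adjusted p = 0.803) and Sox17 (0.30, adjusted p = 0.807) were not.

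Interferon-response and antigen presentation genes rose in WT. Of 20, 15 had a lower interaction and none a higher one (median -1.59), 18 rose in WT and none was called in 1343KO. B2m, the common light chain of class I molecules, was at 44.6 and 48.3 FPKM in 1343KO at day 16 and 42.1 and 38.8 at day 8, against 544 and 525 in WT at day 16 and 81.6 and 94.8 at day 8 (interaction -2.40 ± 0.13, adjusted p = 1.53e-05). The heavy chain H2-D1 had -1.79 ± 0.20 (adjusted p = 0.000558). Ifitm3, a membrane protein that blocks virus entry, showed a different order of the lines: it was at 228 and 205 FPKM in 1343KO at day 16 and 238 and 212 at day 8, against 116 and 107 in WT at day 16 and 37.9 and 41.0 at day 8. Its interaction of -1.53 ± 0.12 (adjusted p = 6.54e-05) narrowed a gap in which 1343KO stayed above WT. Ifit3, an inhibitor of translation of foreign RNA, was at 0.553 and 0 FPKM in 1343KO at day 16 and 0.163 and 0.271 at day 8, against 11.2 and 11.5 in WT at day 16 and 0.698 and 0.314 at day 8 (interaction -3.02 ± 0.34, adjusted p = 0.000528). Bst2, tetherin, which holds budding viruses at the surface, had -1.01 (adjusted p = 0.00574). Several members sit near 1 FPKM, and the count was 9 with a pseudocount of 0.1 and 8 without WT day 16 replicate 1. The macrophage list rose in the same WT libraries, and its part in this list's rise was not tested. Ifi27l2a, an interferon-induced gene outside the list, was among the 12 lowest interactions (-5.09, adjusted p = 0.0203), but its 1343KO replicates disagreed (3.47 and 0 FPKM at day 16, 4.36 and 0 at day 8), and it was not called with a pseudocount of 0.1 (adjusted p = 0.158), with no filter (0.0553), nor without 1343KO day 16 replicate 2, 1343KO day 8 replicate 1, WT day 16 replicate 1, WT day 16 replicate 2 or WT day 8 replicate 1 (adjusted p of 0.0506 to 0.0698).

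Interferon is known to act on such promoters through the interferon-stimulated response element, whose core is a pair of TTTC repeats. Its letters, TTTC, any pair of bases and TTTC again, on either strand, occurred in 9 of the 18 list members with a listed promoter, against 3.99% of all 27025 genes with one and 3.63% of the tested genes. Of the 13 called members with a promoter, 8 held it. Those of Ifit3 (chr19:34583279-34583578, plus strand) and Bst2 (chr8:71537423-71537722, minus strand) are shown, as called members with more than 1 match, with every match in capitals; where matches overlap they form 1 run.
Ifit3: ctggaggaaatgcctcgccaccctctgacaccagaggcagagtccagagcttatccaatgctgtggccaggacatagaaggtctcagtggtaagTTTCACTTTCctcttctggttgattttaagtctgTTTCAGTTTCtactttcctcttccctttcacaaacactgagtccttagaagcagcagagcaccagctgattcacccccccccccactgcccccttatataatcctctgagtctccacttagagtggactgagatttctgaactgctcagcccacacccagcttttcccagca
Bst2: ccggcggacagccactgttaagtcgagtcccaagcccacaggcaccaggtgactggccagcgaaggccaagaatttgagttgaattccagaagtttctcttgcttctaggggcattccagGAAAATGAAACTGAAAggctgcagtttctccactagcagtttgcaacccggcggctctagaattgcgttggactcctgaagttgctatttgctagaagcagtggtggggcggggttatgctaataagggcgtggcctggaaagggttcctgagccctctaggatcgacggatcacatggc

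AGATAA, a form of the GATA element that red cell genes use, occurred on either strand in 4 of the 12 red cell list members with a listed promoter, against 12.7% of all genes with one and 8.02% of the tested genes. Of the 7 called members with a listed promoter, 2 held it, Alas2 and Tal1. That of Alas2 is shown with the match in capitals (chrX:150547167-150547466, plus strand).
Alas2: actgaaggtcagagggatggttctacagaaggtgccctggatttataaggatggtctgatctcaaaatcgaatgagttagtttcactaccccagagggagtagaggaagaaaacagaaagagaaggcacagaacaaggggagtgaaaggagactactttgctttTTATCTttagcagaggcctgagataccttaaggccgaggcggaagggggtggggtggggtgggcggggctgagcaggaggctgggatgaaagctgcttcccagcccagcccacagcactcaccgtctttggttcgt

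**Figure D3:**
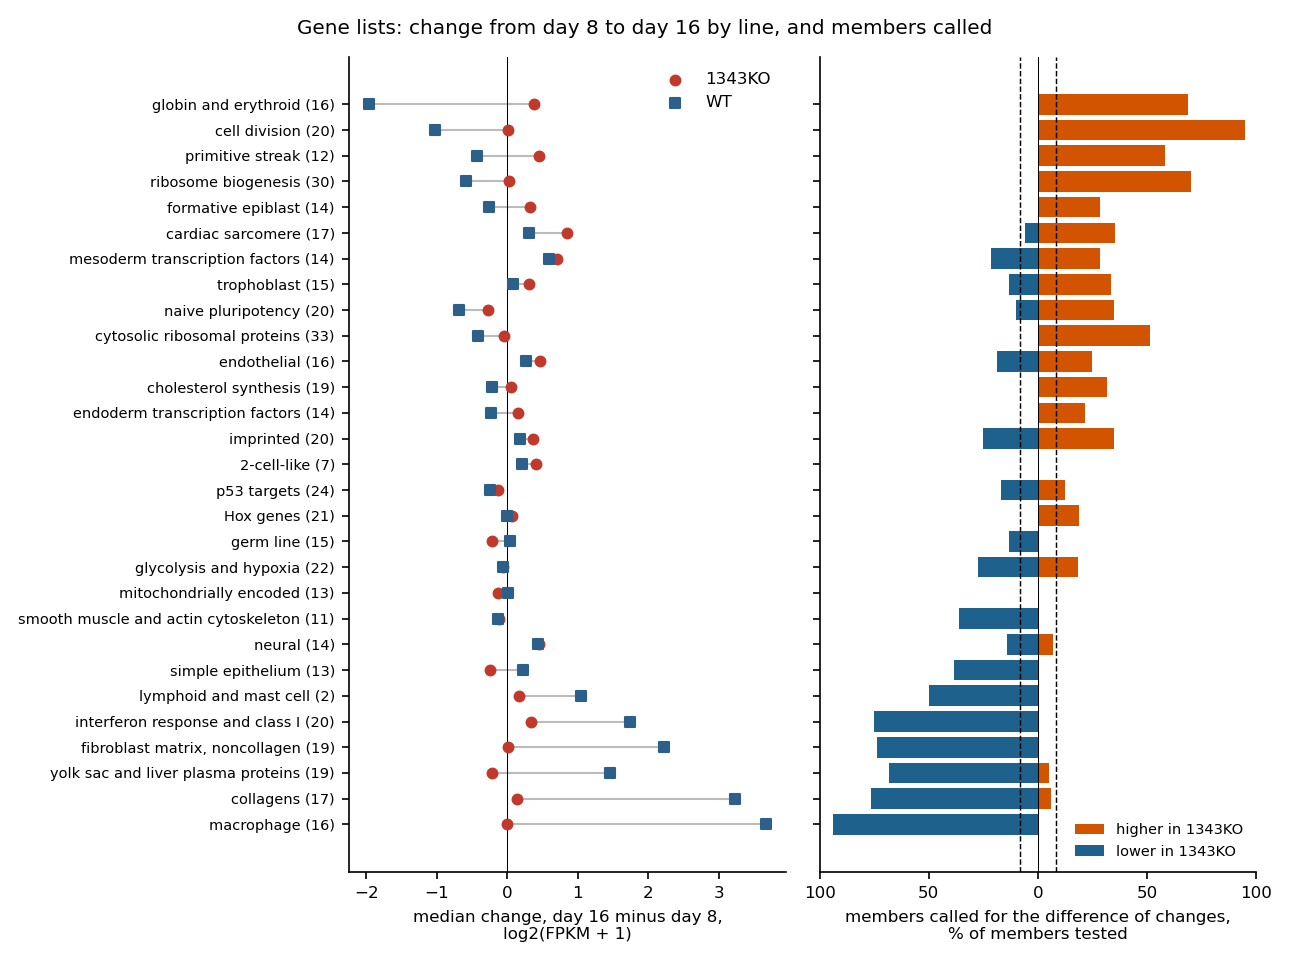
Left, median change from day 8 to day 16 over the tested members of each gene list, in log2(FPKM + 1), for 1343KO (circles) and WT (squares), with the number tested in parentheses. Right, share of those members called higher (to the right) or lower (to the left) by the interaction, with dashed lines at the shares among all tested genes, 8.5% and 8.2%. The 1343KO medians lie between -0.27 and 0.85, and the WT medians between -1.96 and 3.66.

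The pluripotency genes, by which ES cells are known, were high in 1343KO on both days. Pou5f1 (OCT4) was at 419 and 397 FPKM in 1343KO at day 16 and 469 and 453 at day 8, against 23.6 and 18.6 in WT at day 16 and 35.6 and 36.2 at day 8. The lines did not overlap on either day, and the further fall in WT gave an interaction of 0.57 ± 0.13 (adjusted p = 0.0169). Its partner Sox2 had 0.58 ± 0.11 (adjusted p = 0.00865) and Nanog 0.46 ± 0.11 (adjusted p = 0.0243). Of the 20 naive pluripotency genes, 7 had a higher interaction and 2 a lower one (median 0.38), with Sall4 (1.31, adjusted p = 0.000718), Tfcp2l1 (0.97, adjusted p = 0.00126) and Dppa4 (0.96, adjusted p = 0.00113) among the higher. None of the 20 was called in 1343KO, and 11 fell in WT. The 2 lower ones were the Kruppel-like factors Klf4 (-1.55, adjusted p = 0.00123) and Klf5 (-0.89, adjusted p = 0.00241), which differentiated tissues also use and which rose in WT. Pou5f1 was not called without 1343KO day 16 replicate 1, 1343KO day 8 replicate 2 or WT day 8 replicate 2 (adjusted p of 0.0525 to 0.0589), and Nanog not in a fit of the 8 libraries alone (adjusted p = 0.0575), nor without 1343KO day 16 replicate 2, 1343KO day 8 replicate 1, WT day 16 replicate 1 or WT day 8 replicate 1 (adjusted p of 0.0724 to 0.0827).

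Genes of the formative epiblast and primitive streak, which mark the next steps of the embryo, had higher interactions where they were called. Of 14 formative epiblast genes 4 had a higher interaction, and of 12 primitive streak genes 7, with none lower in either list (medians 0.60 and 1.06). Dnmt3b, the DNA methyltransferase that acts as the epiblast forms, rose in 1343KO to 124 and 134 FPKM at day 16, against 88.8 and 87.3 at day 8, and fell in WT to 7.57 and 8.08 at day 16, against 19.6 and 19.4 at day 8 (interaction 1.76 ± 0.098, adjusted p = 1.96e-05). Lin28b, which blocks let-7 processing, had 1.92 ± 0.20 (adjusted p = 0.000358), and the homeodomain factor Otx2 1.41 ± 0.33 (adjusted p = 0.0186) and no call without 1343KO day 16 replicate 2, 1343KO day 8 replicate 1, 1343KO day 8 replicate 2, WT day 16 replicate 1 or WT day 8 replicate 1 (adjusted p of 0.0529 to 0.0613). Fgf5 did not pass (0.76, adjusted p = 0.138). Of the streak genes, Eomes was at 9.28 and 8.70 FPKM in 1343KO at day 16 and 6.28 and 4.28 at day 8, against 0.883 and 0.827 in WT at day 16 and 1.91 and 3.198 at day 8 (interaction 1.60 ± 0.32, adjusted p = 0.00997). T, the transcription factor brachyury, had 1.29 ± 0.28 (adjusted p = 0.0145), but was not called without WT day 16 replicate 1 or WT day 8 replicate 2 (adjusted p of 0.0536 to 0.06), and Cer1, an inhibitor of Nodal and Wnt signals, rose in 1343KO (interaction 1.28 ± 0.29, adjusted p = 0.0169), but was not called with a pseudocount of 0.1 (adjusted p = 0.473), nor without 1343KO day 16 replicate 2, WT day 16 replicate 2 or WT day 8 replicate 1 (adjusted p of 0.0519 to 0.0704). The streak count fell to 3 with a pseudocount of 0.1 and without WT day 16 replicate 1, WT day 16 replicate 2 or 1343KO day 16 replicate 2, and to 2 without WT day 8 replicate 2.

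A small set of genes moved in 1343KO. Genes called both in 1343KO and by the interaction in the same direction numbered 53 that rose and 22 that fell. Heart muscle genes were among those that rose. Actc1, cardiac alpha-actin, was at 13.8 and 15.4 FPKM in 1343KO at day 16 and 1.504 and 1.17 at day 8, against 6.23 and 7.85 in WT at day 16 and 7.88 and 9.02 at day 8. The 1343KO day 16 libraries stood above all other 6 (interaction 2.98 ± 0.26, adjusted p = 0.000125). Tnni1, slow troponin I, reached 9.67 and 7.87 FPKM in 1343KO at day 16, against 1.31 and 1.72 at day 8, where WT had 23.8 and 31.8 at day 16 and 48.4 and 49.5 at day 8 (interaction 2.76 ± 0.43, adjusted p = 0.00295; with a pseudocount of 0.1, 0.054). Tnnt2, cardiac troponin T, had 1.55 ± 0.36 (adjusted p = 0.0186), not called with a pseudocount of 0.1 (adjusted p = 0.0853), nor without 1343KO day 16 replicate 1, 1343KO day 8 replicate 1, WT day 16 replicate 1, WT day 8 replicate 1 or WT day 8 replicate 2 (adjusted p of 0.0501 to 0.0667), and Myl7, the atrial myosin light chain, 3.23 ± 0.59 (adjusted p = 0.00627). Of 17 sarcomere genes 6 were higher and 1, Myl2, the ventricular light chain, lower (-2.30, adjusted p = 0.00491). A rise was called for 3 in each line, so the higher sarcomere genes named above were not all called for a rise in 1343KO. The higher count was 2 with a pseudocount of 0.1, and 3 without 1343KO day 16 replicate 1, WT day 16 replicate 1 or either WT day 8 library. Asb4, an ubiquitin ligase subunit of vascular and placental development, rose in 1343KO to 10.99 and 11.3 FPKM at day 16, against 0.992 and 1.05 at day 8, which left it below WT, at 26.8 and 25.6 at day 16 and 22.7 and 24.6 at day 8 (interaction 2.44 ± 0.22, adjusted p = 0.000149).

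Several tested genes for prolactin-like hormones of the placenta rose in 1343KO. Trophoblast giant cells secrete them, and the family is described here because its members were seen among the largest changes. Of 12 tested members, 7 had a higher interaction and 1 a lower one, 10 rose in 1343KO, and 2 rose in WT, where no library of either day exceeded 3.45 FPKM. Because 5 of the 12 passed the filter only through the 1343KO day 16 libraries, where they are high, these counts describe the tested members and are no support for a change of the family. Prl2c3 was at 14.5 and 15.6 FPKM in 1343KO at day 16 and 1.20 and 0 at day 8, and was listed at 0 in all 4 WT libraries (interaction 3.43 ± 0.46, adjusted p = 0.00135). Prl3d1, placental lactogen I, was at 7.55 and 5.67 FPKM in 1343KO at day 16 and 0.406 and 0 at day 8, against 0 and 0 in WT at day 16 and 0.114 and 0 at day 8 (interaction 2.75 ± 0.32, adjusted p = 0.000645). Prl2c2 (2.82, adjusted p = 0.000328) and Prl4a1 (2.49, adjusted p = 0.00148) had the same pattern; with a pseudocount of 0.1 Prl2c3 and Prl4a1 missed the threshold (adjusted p = 0.0581 and 0.0542). The lower one was Prl2b1 (-2.17, adjusted p = 0.00366). The genes are close copies, and the division of reads among them is uncertain. Without either 1343KO day 16 library 7 members were tested, 1 called higher and 1 lower, and the higher count was 4 without WT day 16 replicate 1 and 2 with a pseudocount of 0.1. The trophoblast list as a whole, which holds 3 of them, had 5 higher and 2 lower of 15, and its higher count was 1 without either 1343KO day 16 library and 3 without 1343KO day 8 replicate 1 or WT day 16 replicate 1.

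**Figure D4:**
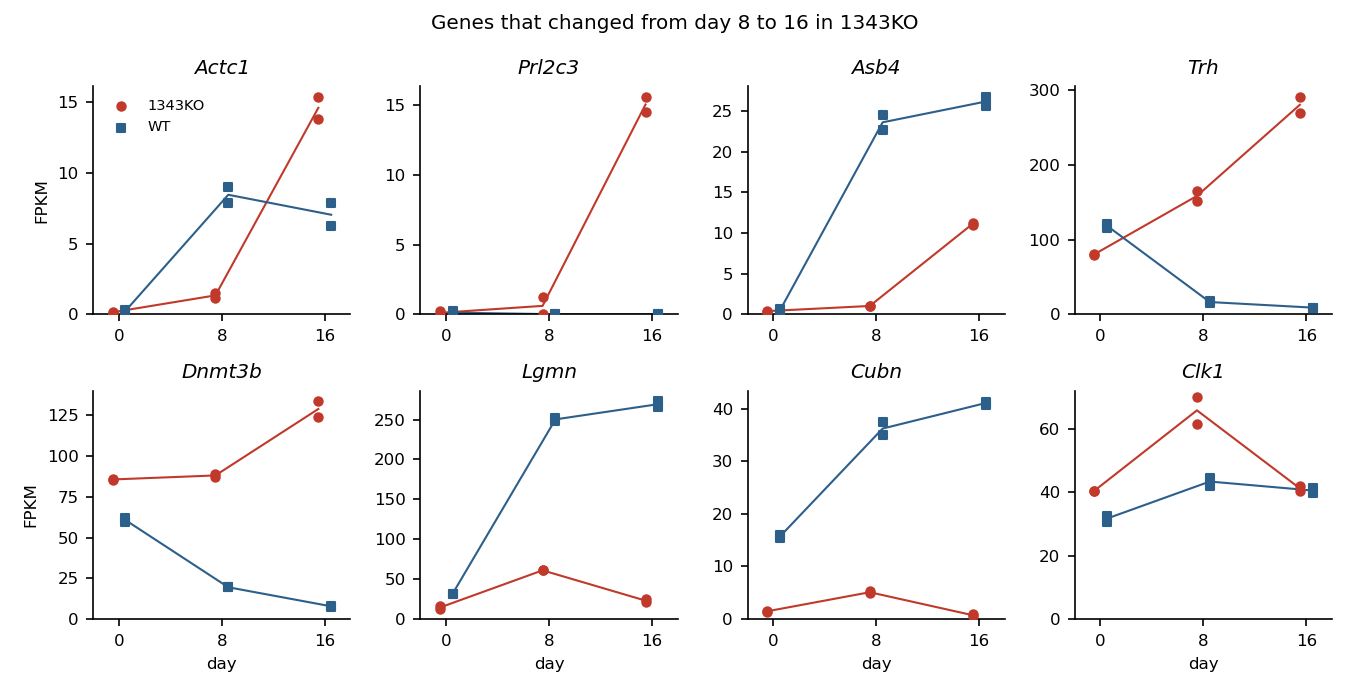
FPKM of 8 genes in every library at days 0, 8 and 16, for 1343KO (circles) and WT (squares), with lines through the means of 2 libraries; each panel has its own axis from 0. Actc1, Prl2c3, Asb4, Trh and Dnmt3b rose in 1343KO between days 8 and 16, and Lgmn, Cubn and Clk1 fell.

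Genes that fell in 1343KO included some with high levels in WT on both days. Lgmn, legumain, a lysosomal protease, was at 24.7 and 21.6 FPKM in 1343KO at day 16 and 61.1 and 61.0 at day 8, against 266 and 273 in WT at day 16 and 248 and 252 at day 8. Both 1343KO libraries of day 16 lay below both of day 8, while the change in WT was not called (interaction -1.47 ± 0.15, adjusted p = 0.000348). S100g, the calcium-binding protein calbindin-D9k, fell to 6.43 and 8.86 FPKM in 1343KO at day 16, against 24.8 and 26.4 at day 8, and rose to 463 and 488 in WT at day 16, against 266 and 250.4 at day 8 (interaction -2.51 ± 0.27, adjusted p = 0.000385). Gpx3, the secreted glutathione peroxidase, did likewise (-2.37 ± 0.14, adjusted p = 2.26e-05). The small heat shock genes Hspb1 (-1.40, adjusted p = 0.000291) and Cryab (-1.16, adjusted p = 0.00561) fell in 1343KO, Hspb1 from a 1343KO level above WT and Cryab from one below it. Clk1, a kinase of splicing factors, fell to 40.5 and 42.1 FPKM in 1343KO at day 16, against 61.7 and 70.1 at day 8, to the level WT had on both days (41.4 and 39.8 at day 16 and 42.2 and 44.7 at day 8; interaction -0.57 ± 0.12, adjusted p = 0.0105).

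Imprinted genes, many of which control fetal growth, were called in both directions. Of 20 imprinted genes, 7 had a higher interaction and 5 a lower one, 6 rose in 1343KO and 10 in WT. Mest, an alpha/beta hydrolase expressed from the paternal copy, rose in 1343KO to 149 and 145 FPKM at day 16, against 80.5 and 84.4 at day 8, and fell in WT to 362 and 347 at day 16, against 421 and 424 at day 8 (interaction 1.08 ± 0.11, adjusted p = 0.000359). Igf2, the fetal growth factor, was at 434 and 433 FPKM in 1343KO at day 16 and 369 and 393 at day 8, against 3515 and 3477 in WT at day 16 and 1728 and 1759 at day 8 (interaction -0.82 ± 0.15, adjusted p = 0.00734). Grb10, which dampens growth factor receptors, rose more in 1343KO (interaction 0.50, adjusted p = 0.00439). Hmga2, a chromatin protein of growing embryos, outside the list, rose in 1343KO and fell in WT, which brought it to 44.1 and 42.8 FPKM in 1343KO at day 16 and 18.2 and 14.8 at day 8, against 70.6 and 69.5 in WT at day 16 and 122 and 113 at day 8 (interaction 2.09 ± 0.15, adjusted p = 3.81e-05). The count of lower imprinted members was 3 with a pseudocount of 0.1 and without any one of the 8 libraries except 1343KO day 16 replicate 1.

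In the remaining lists the counts were small or split, and some lay near the shares of all tested genes, 8.5% higher and 8.2% lower. Of 16 endothelial genes 4 were higher, with the receptors Tek (1.47, adjusted p = 0.0038), Tie1 (1.58, adjusted p = 0.00623) and Kdr (1.49, adjusted p = 0.0103; with a pseudocount of 0.1, 0.0731) among them, and 3 lower, with the junction gene Cldn5 (-2.11, adjusted p = 0.00257). Of 19 cholesterol synthesis genes 6 were higher, led by Pmvk (1.21, adjusted p = 0.00626), and leaving out any one of the 8 libraries but 1343KO day 8 replicate 1 took the count to 3. Of 13 simple epithelium genes 5 were lower (3 without 1343KO day 16 replicate 2, 1343KO day 8 replicate 1, WT day 16 replicate 2 or either WT day 8 library), but Krt8, keratin 8, was not called (0.14, adjusted p = 0.359): it fell in both lines. Of 11 smooth muscle genes 4 were lower. Of 24 p53 target genes 3 were higher (1 without 1343KO day 8 replicate 2 or WT day 16 replicate 2) and 4 lower (2 without either WT day 16 library). Of 21 Hox genes 4 were higher and none lower, and the count lay between 0 and 2 without any one of the 8 libraries except 1343KO day 8 replicate 1. Of 14 neural genes 1 was higher and 2 lower, the higher count was 0 without any 1 of the 12 libraries and the lower one 1 without 1343KO day 8 replicate 2, WT day 16 replicate 1 or WT day 8 replicate 2, and Pax6 was not called (0.37, adjusted p = 0.521). Of 15 germ line genes 2 were lower, and 1 without any 1 of the 12 libraries except those of WT day 0. None of the 7 tested genes of the 2-cell-like state or of the 13 mitochondrial genes was called.

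Arhgef4, a guanine nucleotide exchange factor, had the most negative interaction among the named genes, and rested on replicates that disagreed. It was at 1.16 and 1.60 FPKM in 1343KO at day 16 and 52.5 and 0.814 at day 8, against 78.1 and 68.8 in WT at day 16 and 0.588 and 0.404 at day 8 (interaction -7.69 ± 1.65, adjusted p = 0.0131). The rise in WT stood in both libraries, while without 1343KO day 8 replicate 1 the interaction was -5.25 (adjusted p = 0.000345) and without replicate 2 of that group -10.1. Fcgrt, the neonatal Fc receptor that recycles antibodies and albumin, was another of the 12 lowest (-4.74 ± 0.40, adjusted p = 9.9e-05).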

How the data were processed

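Gene levels were taken from 1 table of 12 libraries (6 groups of 2), in which the authors deposited FPKM values. Per the submitters' processing notes Cufflinks 2.1.1 and the GRCm38 (mm10) genome were used; the sources used here give no aligner, annotation or scaling between libraries. Cufflinks estimates levels from reads divided among overlapping transcripts, so genes with near-identical copies are uncertain, and some exact zeros may be failed estimates. Coordinates are those of the table, 1-based; 99.9% of gene IDs matched the mouse annotation used for gene types, with 98.7% at the same coordinates. No counts were given; depth was estimated from the lowest values, assuming that 1 to 3 fragments give them, and 86.4% to 88.9% of these values lay within 5% of a whole number, so no count test was run.

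Values were tested as log2(FPKM + 1) with limma 3.58.1 (R 4.3.3, empirical Bayes with a mean trend) over all 6 groups and 12 libraries, which share 1 estimate of the spread with 6 residual degrees of freedom; the filter kept genes that reached 1 FPKM in 2 or more libraries. Each contrast was adjusted by Benjamini-Hochberg over all tested genes, and a gene is called at an adjusted p under 0.05. Errors are the SE of the fit unless stated. With 2 libraries against 2 an exact two-sided permutation test cannot go below p = 0.333, so none was used. The same steps were run on simulated data in which differences were planted only in genes away from low levels. That run does not cover genes at low levels.

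The members and gene lists were chosen with earlier results of these data known. Named genes were the 12 largest interactions in each direction among called genes that reached a mean of 5 FPKM in a group and whose 4 day 16 minus day 8 differences in one line all lay above those of the other, the 4 called members of each list with the smallest p, and a set of cell type markers. Further list members, the prolactin family, the genes led by a change in 1343KO (such as Asb4, Clk1, Cryab, Gpx3, Hmga2, Lgmn and S100g) and those that moved in opposite directions were chosen after their values were seen. Of 534 listed genes, 529 were in the table and 486 were tested. Promoter sequences are from RefSeq (GRCm38.p6). Alternatives were another pseudocount, other filters, 2 scalings, a replicate block, a fit of 8 libraries, robust empirical Bayes, a minimum difference, no chromosomes 8 and Y, and each library left out in turn. One gene is not reported here.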

Additional observations from a re-analysis of the deposited data

Results flagged for a closer look

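The change from day 8 to day 16 differed between the lines for 2720 genes by the interaction test. For 27 of them the change itself was called in both lines and in opposite directions, 16 with a rise in 1343KO and a fall in WT and 11 with the reverse. Of these, 25 are named genes, given here with the interaction in log2(FPKM + 1), chosen by this rule after the data were seen. Some of the 1343KO calls lay close to the threshold in the limma fit, as for Emb (adjusted p = 0.0435), Anxa2 (0.0480) and Mfge8 (0.0422). Whether each gene kept its 1343KO call with a library left out was not tested.

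Among the genes that rose in 1343KO and fell in WT, the interaction was 7.87 for the embryonic globin Hba-x, 3.995 for Rgs5, 3.45 for Emb, 3.08 for Hapln1, a link protein of cartilage and heart matrix, and 2.25 for Nrp1, a semaphorin and VEGF co-receptor. It was 2.18 for Amot, an angiostatin-binding regulator of YAP, 2.09 for Hmga2, 1.92 for Irs4, an insulin receptor substrate, 1.76 for Dnmt3b and 1.63 for Trh, the thyrotropin-releasing hormone precursor. Trh was at 291 and 269 FPKM in 1343KO at day 16 and 165 and 151 at day 8, against 8.87 and 8.88 in WT at day 16 and 15.1 and 17.6 at day 8. The smallest of this set were 1.38 for the surface protein Cd24a, 1.22 for the receptor Adgra3, 1.20 for the hedgehog transducer Smo, 1.08 for Mest and 0.74 for the chromatin protein Hmgb3.

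Among the genes that fell in 1343KO and rose in WT, the interaction was -2.51 for S100g, -2.37 for Gpx3, -2.11 for Mfge8, which tags dying cells for uptake, -1.81 for the membrane-binding annexin Anxa2 and -1.80 for Npl, a sialic acid lyase. It was -1.74 for Ass1, an enzyme of arginine synthesis, -1.52 for Apob, -1.40 for Hspb1, -0.94 for Kdelr3, a receptor that returns proteins to the endoplasmic reticulum, and -0.89 for the matrix signalling protein Ctgf. Mfge8 was at 46.2 and 46.6 FPKM in 1343KO at day 16 and 69.5 and 64.8 at day 8, against 173 and 186 in WT at day 16 and 61.0 and 57.3 at day 8. Groups of 2 libraries are too small for a test of single outlying libraries.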

How the results depend on the processing

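The interaction was called for 2720 genes (1384 higher, 1336 lower), with 1181 higher and 1449 lower under median-of-ratios scaling (median -0.008) and 1719 higher and 1293 lower under TPM scaling (median 0.084); the total was 1949 to 3012 across the alternatives of another pseudocount or filter, median-of-ratios or TPM scaling, 8 libraries, robust empirical Bayes or without chromosomes 8 and Y. With the replicate block 2588 genes were called; equal numbers did not deviate together between groups (correlations of -0.036 to 0.036) and no label ties them, so the libraries were treated as unpaired. Requiring a difference above 1 on the log2 scale left 249 calls (48 higher, 201 lower), with 8 for the 1343KO change and 407 for the WT change. A mean of at least 5 FPKM over the 12 libraries left 9602 genes and 701 lower calls. In the direction of their list, 4 of 6 red cell, 8 of 8 macrophage, 7 of 9 interferon and 1 of 4 streak genes were then called. A gene high in 1 group alone can pass this filter through that group. These counts therefore describe the members kept and are no support for a change of their lists. Trophoblast genes had 1 higher and 2 lower of 4 (median -0.64), and endothelial genes 1 higher and 2 lower of 8 (median -0.11). Those 2 medians were of opposite sign to those of the full lists (0.46 and 0.32). Leaving out single libraries gave 1596 to 2640 calls, 888 to 1335 higher and 644 to 1305 lower, with 23 to 133 for the 1343KO change and 2747 to 4489 for the WT change. Of 127 named genes with an interaction call, 98 had it whichever library was left out, 18 could not be tested without some library, 11 lost it without some library, and 14 lost it under another alternative apart from the minimum difference; 2 of the other 13 gained one in some alternative. None of these 127 named genes changed direction where it was tested. Depth limits genes near 1 FPKM, where a few fragments set the value.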

Other observations

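By chromosome, the median interaction over genes that averaged 20 FPKM or more was 0.24 for the 214 genes of chromosome 8, and 0.08 to 0.25 for the other 19 chromosomes compared. The level relative to WT was lower for chromosome 8 on both days. Its median log2 difference from WT was -0.16 at day 8, against 0.026 to 0.341 for the other 19. At day 16 it was 0.057, against 0.176 to 0.505. The cause of this lower level was not tested. Of 6620 genes whose median reached 10 FPKM, 17 were listed at an exact 0 in some library.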
